A study of Mus musculus with 8 samples.

Results

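Collagens are the main structural proteins of the extracellular matrix, and their genes are described here in the whole testis of mice 12 days after birth (P12). All genes whose symbol has the form Col, a number, the letter a and a number were taken, which gave 44 of the 40840 genes in the count tables. By textbook class, 11 encode fibrillar collagens, 6 encode the type IV chains of basement membranes and 27 encode other collagens. RNAseq libraries were made from the whole testis of 8 mice on a C57BL/6J background, 4 of either genotype, and the mice of a genotype are lettered A to D. By the study's breeding scheme, wild type mice carried 1 floxed and 1 intact *Tra2b* allele (*Tra2bPE* fl/+) without a Cre transgene. *Tra2b-cPEko* mice carried 1 floxed and 1 deleted allele (fl/-) and the germ cell-specific *Vasa-Cre* transgene, which removes the poison exon of *Tra2b*, an exon whose inclusion stops the mRNA from making protein. Recombination is directed at germ cells, so Sertoli, Leydig, myoid and stromal cells of these testes keep the poison exon on the floxed allele, but they carry the deleted allele, which wild type mice do not. Myoid and stromal cells are known as main sources of fibrillar collagen. The comparison addresses how collagen transcripts of the whole organ differed between the genotypes. As each library is a whole testis, fewer cells of a type and less RNA per cell cannot be told apart.

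Between 41998195 and 59101569 reads were counted on genes per wild type mouse and between 36757386 and 49992767 per *Tra2b-cPEko* mouse. Levels are given as CPM, the count of a gene divided by its library total after TMM scaling, on the usual scale of this unit. *Tra2b* itself was at 156 to 176 CPM in wild type and 190.3 to 209 CPM in *Tra2b-cPEko* mice, with no overlap. Its log2 fold change was 0.27 (SE 0.049), with an adjusted p of 0.0552 from edgeR, which did not call it, and 0.000201 from DESeq2. Since a count per gene covers all exons, it does not show whether the poison exon was deleted. The library of *Tra2b-cPEko* replicate C stood apart, since 8 markers of the epididymal epithelium summed to 294 CPM there and to between 3.39 and 7.83 CPM in the other 7 libraries. Calls of collagen genes, the median of each class and the collagen genes in which this mouse stood well above the rest are also given without it.

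Collagen molecules are helices of alpha chains, and each chain has a gene of its own. Fibrillar collagens such as types I, III and V form the rope-like fibrils of connective tissue, while type IV collagen forms the sheet that underlies epithelia and vessels. In the testis, the seminiferous tubule rests on a basement membrane that Sertoli and peritubular myoid cells lay down together, surrounded by layers of myoid cells, fibrils and interstitial stroma. Other collagens decorate fibrils (the FACIT group), form beaded microfilaments (type VI), tie basement membranes to the stroma (types VII, XV and XVIII) or span the cell membrane.

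The type IV genes lie in pairs that start next to each other and are transcribed in opposite directions, and the most abundant of these pairs, *Col4a1* and *Col4a2*, is shown first. The windows run from 250 bases before to 50 bases after the start of each gene (RefSeq, GRCm38.p6, written 5′ to 3′ on the strand of the gene), *Col4a1* at chr8:11312777-11313076 on the minus strand and *Col4a2* at chr8:11312555-11312854 on the plus strand. The capitals mark the 78 bases that lie in both windows, read from opposite strands.
Col4a1: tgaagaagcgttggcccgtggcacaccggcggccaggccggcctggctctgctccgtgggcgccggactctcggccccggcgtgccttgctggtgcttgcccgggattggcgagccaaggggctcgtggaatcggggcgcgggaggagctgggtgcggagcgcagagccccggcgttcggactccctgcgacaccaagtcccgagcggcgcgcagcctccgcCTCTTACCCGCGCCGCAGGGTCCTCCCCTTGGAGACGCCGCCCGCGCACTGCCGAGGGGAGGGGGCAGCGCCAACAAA
Col4a2: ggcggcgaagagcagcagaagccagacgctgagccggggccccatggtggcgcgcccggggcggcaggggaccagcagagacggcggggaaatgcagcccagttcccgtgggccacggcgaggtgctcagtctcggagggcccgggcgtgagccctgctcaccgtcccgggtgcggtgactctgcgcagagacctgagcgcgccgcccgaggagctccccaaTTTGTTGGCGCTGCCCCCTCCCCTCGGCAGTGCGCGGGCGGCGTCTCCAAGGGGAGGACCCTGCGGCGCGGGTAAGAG
Windows of the same kind are shown for *Col1a2* (chr6:4505368-4505667, plus strand), the most abundant collagen transcript, and for *Col7a1* (chr9:108953336-108953635, plus strand) and *Col24a1* (chr3:145292222-145292521, plus strand), for which the difference between the genotypes passed the test of DESeq2. Here the capitals mark matches on either strand to CCAAT, to GGGCGG, known as the GC box, and to TATAAA, known as the TATA box.
Col1a2: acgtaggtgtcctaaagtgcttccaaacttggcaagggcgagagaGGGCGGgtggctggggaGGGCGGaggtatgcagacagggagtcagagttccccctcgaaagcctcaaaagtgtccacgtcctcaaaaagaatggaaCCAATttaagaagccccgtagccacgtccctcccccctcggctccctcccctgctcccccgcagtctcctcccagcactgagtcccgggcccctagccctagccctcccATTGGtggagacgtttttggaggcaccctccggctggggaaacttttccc
Col7a1: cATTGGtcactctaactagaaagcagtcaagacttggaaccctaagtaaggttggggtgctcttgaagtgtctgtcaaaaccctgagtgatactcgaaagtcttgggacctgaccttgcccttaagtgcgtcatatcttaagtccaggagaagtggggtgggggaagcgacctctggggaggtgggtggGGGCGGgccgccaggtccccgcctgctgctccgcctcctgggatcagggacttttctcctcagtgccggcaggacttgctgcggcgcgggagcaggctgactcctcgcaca
Col24a1: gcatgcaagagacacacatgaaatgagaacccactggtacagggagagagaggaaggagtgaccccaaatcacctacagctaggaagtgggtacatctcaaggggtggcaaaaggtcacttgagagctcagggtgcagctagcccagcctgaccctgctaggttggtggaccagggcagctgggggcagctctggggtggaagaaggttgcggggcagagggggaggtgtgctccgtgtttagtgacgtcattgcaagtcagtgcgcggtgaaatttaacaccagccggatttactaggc
The *Col1a2* window held 2 matches to CCAAT and 2 to GGGCGG, the *Col7a1* window 1 of each, and the *Col24a1* window none to any of the 3 motifs. The matches did not overlap each other. The table of promoters holds 38 windows for 35 of the 44 collagen genes, and the other 9 are *Col1a1*, *Col2a1*, *Col4a3*, *Col5a2*, *Col9a3*, *Col12a1*, *Col14a1*, *Col22a1* and *Col26a1*. GGGCGG or its reverse complement was found in 23 of the 38 windows (60.5%), against 35.7% of all 32851 windows. CCAAT was found in 13 windows (34.2%, against 37.4%) and TATAAA in 5 (13.2%, against 13.6%). These matches describe the letters of the windows only.

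No collagen gene passed edgeR's quasi-likelihood test over all genes (Benjamini-Hochberg adjusted p under 0.05), while DESeq2 called *Col7a1* and *Col24a1*, both higher in *Tra2b-cPEko* mice. Of the 44 genes, 43 passed the filter on low counts, and edgeR called 0 of them, against 0.157% of all 19104 genes tested (30 genes). The unadjusted edgeR p was under 0.05 for 9 of the 43 genes, against 15.3% of all genes tested, with 8 higher (against 8.22%) and 1, *Col18a1*, lower (against 7.07%) in *Tra2b-cPEko* mice. DESeq2 called 2 of 43, against 2.68% of the genes it tested, or 1.6% when only genes higher in *Tra2b-cPEko* mice are counted. Without *Tra2b-cPEko* replicate C, edgeR called 0 of the collagen genes (against 0.0467%) and DESeq2 called *Col7a1* alone (against 0.714%). Without the filter on low counts, edgeR called *Col7a1* (against 0.391%). *Col10a1*, a collagen of hypertrophic cartilage, did not pass the filter. It had 1, 0, 0 and 2 counts in wild type replicates A to D and 0 in each *Tra2b-cPEko* library.

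Most collagen genes were nonetheless somewhat higher in *Tra2b-cPEko* than in wild type mice. Of the 43 genes tested, 37 had a log2 fold change above 0, against 49.7% of all genes tested. The median log2 fold change was 0.11 over the 43 genes and -0.0011 over all genes. By class, the median was 0.081 for the fibrillar genes (8 of 11 above 0), 0.14 for the type IV genes (6 of 6 above 0) and 0.16 for the other collagens (23 of 26 above 0). The 43 genes come from the same 8 mice and are not independent of each other. Without *Tra2b-cPEko* replicate C, 35 of 43 were above 0 with a median of 0.097, and without wild type replicate C, 37 with a median of 0.17. The fibrillar median was 0.042 without *Tra2b-cPEko* replicate C, 0.13 without *Tra2b-cPEko* replicate A and 0.14 without wild type replicate C. The type IV median was 0.088 without *Tra2b-cPEko* replicate C and 0.084 without wild type replicate B, and the median of the other collagens was 0.16 without *Tra2b-cPEko* replicate C.

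**Figure D1:**
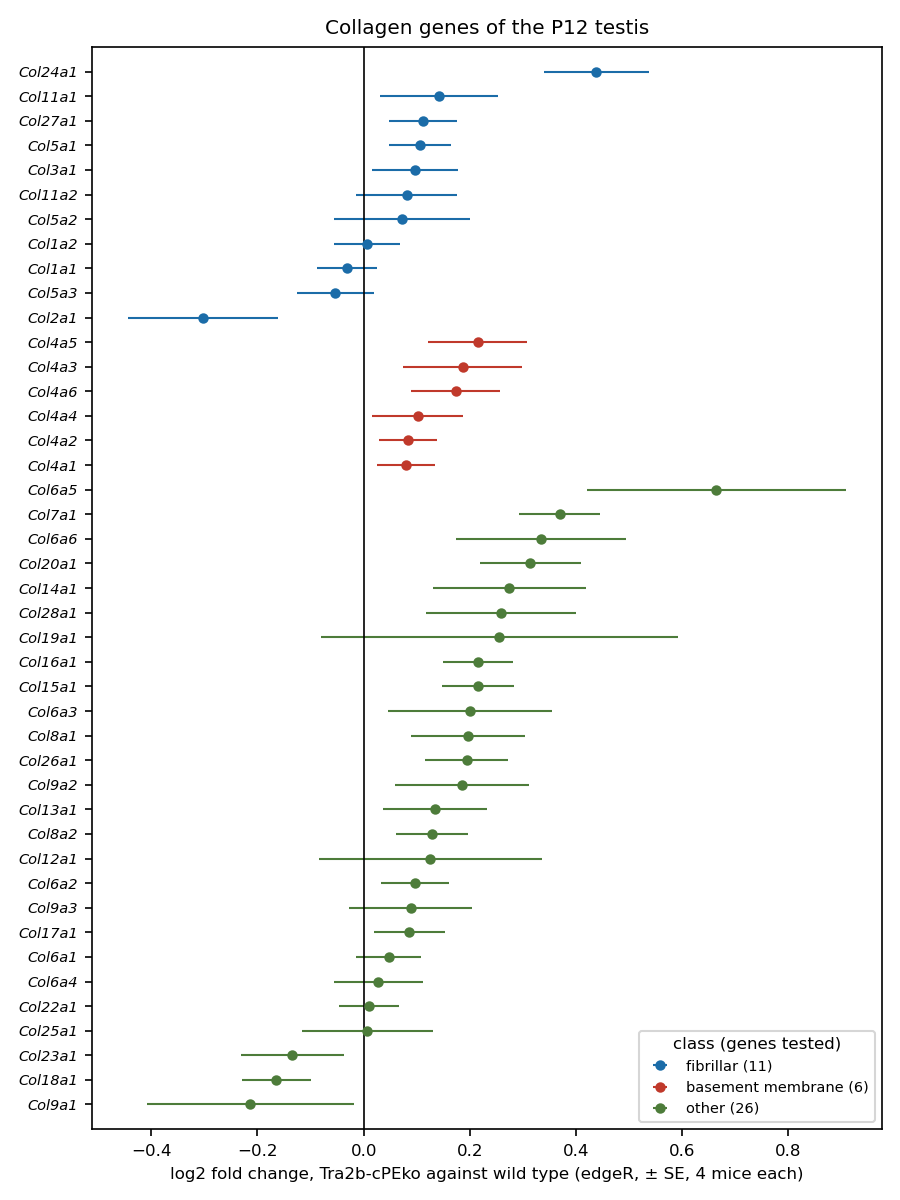
The log2 fold change of each of the 43 collagen genes tested (x axis, edgeR, *Tra2b-cPEko* against wild type, bars ± SE, 4 mice per genotype), grouped and coloured by class and sorted within it. Most points lie to the right of 0, and the highest are *Col6a5* (0.66), *Col24a1* (0.44) and *Col7a1* (0.37).

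The ranges of the genotypes were fully separate in 5 of the 43 genes, against 8.54% of all genes tested. These were *Col7a1*, *Col16a1*, *Col17a1*, *Col20a1* and *Col24a1*, all higher in *Tra2b-cPEko* mice, a direction in which 4.36% of all genes were separate. *Col17a1*, a membrane collagen of hemidesmosomes named here after its values were seen, was at 11.8, 11.0, 11.8 and 11.6 CPM in wild type replicates A to D and 12.3, 12.1, 11.9 and 12.7 CPM in *Tra2b-cPEko* replicates A to D. Its groups were separated by a narrow gap, with a log2 fold change of 0.086 (SE 0.067, edgeR adjusted p = 0.562).

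Collagen transcripts made up 0.939, 0.955, 1.08 and 0.939% of the counts on genes in wild type replicates A to D and 0.968, 1.03, 1.06 and 0.980% in *Tra2b-cPEko* replicates A to D. The lowest and highest shares of all 8 mice were both found in wild type testes. Wild type replicate C was above the other wild type mice, and its share exceeded that of every *Tra2b-cPEko* mouse. The mean share was 0.977 ± 0.0669% in wild type and 1.01 ± 0.0441% in *Tra2b-cPEko* mice (mean ± SD, n = 4), a difference smaller than the spread of the wild type mice. The sum was dominated by few genes, since *Col1a2*, *Col3a1* and *Col1a1* together took 50.4% of it and the 10 most abundant genes 85.4%.

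The 2 genes of type I collagen, which forms most of the fibrils of connective tissue, were close to equal in the genotypes. *Col1a2* was at 1829, 1806, 2123 and 1745 CPM in wild type replicates A to D and 1861, 1919.8, 1978 and 1776 CPM in *Tra2b-cPEko* replicates A to D. The wild type mice spanned the *Tra2b-cPEko* mice, and replicate C was the highest of the 8. The means were 1876 ± 169 CPM in wild type and 1884 ± 86.0 CPM in *Tra2b-cPEko* (mean ± SD, n = 4), with a log2 fold change of 0.0061 (SE 0.062, edgeR adjusted p = 0.976). *Col1a1* was at 1277, 1423, 1398 and 1295 CPM in wild type replicates A to D and 1385, 1302, 1385 and 1205 CPM in *Tra2b-cPEko* replicates A to D. The groups overlapped over most of their range, with a log2 fold change of -0.031 (SE 0.056, edgeR adjusted p = 0.836).

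*Col3a1*, the chain of type III collagen, which joins type I in soft and distensible tissues, was at 1748, 1629, 1956 and 1635 CPM in wild type replicates A to D and 1604, 1925, 2087 and 1833 CPM in *Tra2b-cPEko* replicates A to D. *Tra2b-cPEko* replicate A lay below all wild type mice and replicate C above them, with a log2 fold change of 0.096 (SE 0.082, edgeR adjusted p = 0.6). The log2 fold change was 0.035 without *Tra2b-cPEko* replicate C, 0.16 without *Tra2b-cPEko* replicate A, 0.15 without wild type replicate C and 0.064 without wild type replicate D. *Col5a1* and *Col5a2* encode type V collagen, which starts fibrils and sets their diameter. *Col5a1* was at 199.96, 205, 237 and 216 CPM in wild type replicates A to D and 212, 242, 235 and 233 CPM in *Tra2b-cPEko* replicates A to D, with a log2 fold change of 0.11 (SE 0.058, edgeR adjusted p = 0.407). *Col5a2* was at 134, 119, 164 and 116 CPM in wild type replicates A to D and 116, 154, 148 and 143 CPM in *Tra2b-cPEko* replicates A to D, with a log2 fold change of 0.072 (SE 0.13, edgeR adjusted p = 0.836). In both genes wild type replicate C lay well above the other wild type mice, within or above the range of the *Tra2b-cPEko* mice. The log2 fold change of *Col5a2* depended on single mice. It was 0.022, 0.19 and 0.0084 without wild type replicates B, C and D. When a *Tra2b-cPEko* mouse was left out, it was 0.15 for replicate A, 0.023 for replicate B and 0.042 for replicate C.

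*Col24a1*, a minor fibrillar collagen known from bone and cornea, had the highest fold change of its class at a low level. Its counts gave 5.996, 6.74, 7.01 and 6.37 CPM in wild type replicates A to D and 8.12, 7.95, 9.30 and 10.02 CPM in *Tra2b-cPEko* replicates A to D. Each *Tra2b-cPEko* mouse was above each wild type mouse. The means were 6.53 ± 0.440 CPM in wild type and 8.85 ± 0.986 CPM in *Tra2b-cPEko* (mean ± SD, n = 4), with a log2 fold change of 0.44 (SE 0.098, edgeR adjusted p = 0.095), and DESeq2 gave an adjusted p of 0.00659. Over fits of DESeq2 without 1 of the 8 mice, which were added after the values were seen, it was called in 5 of 8. Its adjusted p from DESeq2 was 0.0619 without wild type replicate A, 0.0737 without *Tra2b-cPEko* replicate C and 0.0716 without *Tra2b-cPEko* replicate D. The gene lies at chr3:144998233-145257766 (GRCm39) and overlaps annotated genes on both strands, and whether the counting used strand is not given in the sources used here.

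The other 5 fibrillar genes are best known from cartilage (*Col2a1*, *Col11a1*, *Col11a2*, *Col27a1*) or as a variant chain of type V (*Col5a3*), and their means over the 8 mice were between 5.51 and 27.2 CPM. Their log2 fold changes were between -0.30, in *Col2a1*, and 0.14, in *Col11a1*, with adjusted p from edgeR between 0.333 and 0.763. *Col2a1*, named here as the lowest fold change of all 43, was at 6.88, 7.10, 4.48 and 5.90 CPM in wild type replicates A to D and 4.91, 5.39, 4.28 and 5.17 CPM in *Tra2b-cPEko* replicates A to D. Its groups overlapped, as wild type replicate C was below 3 of the *Tra2b-cPEko* mice. Summed CPM of 6 other cartilage markers were 23.9 to 29.9 CPM in wild type and 27.8 to 30.3 CPM in *Tra2b-cPEko* mice.

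**Figure D2:**
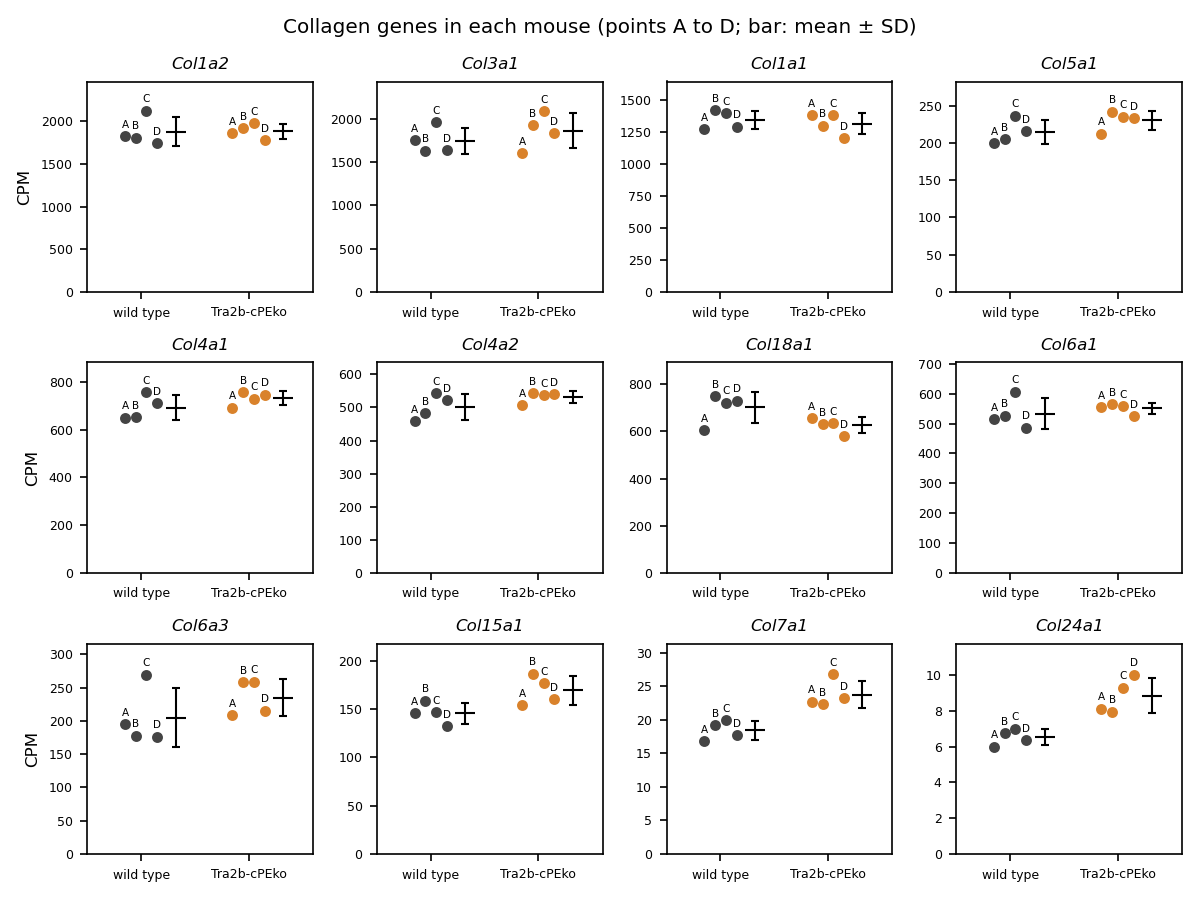
CPM (y axis, from 0) of 12 collagen genes in each mouse, with points labelled by replicate letter and the mean ± SD (n = 4) beside them, wild type in grey and *Tra2b-cPEko* in orange. The groups of *Col1a2*, *Col3a1* and *Col1a1* overlap, wild type replicate C is the highest wild type mouse in most panels, and only *Col7a1* and *Col24a1* among these panels show no overlap.

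All 6 genes of type IV collagen, the network of basement membranes, had a log2 fold change above 0, between 0.079 and 0.21, and none passed the test. *Col4a1* was at 650.2, 653, 756 and 709 CPM in wild type replicates A to D and 692, 757, 729 and 746 CPM in *Tra2b-cPEko* replicates A to D. *Col4a2*, the partner chain present in nearly all basement membranes, was at 458, 483, 543 and 521 CPM in wild type replicates A to D and 507, 543, 537 and 540.0 CPM in *Tra2b-cPEko* replicates A to D. In both genes, wild type replicates A and B were the lowest of the 8 mice and wild type replicates C and D lay within or near the *Tra2b-cPEko* range. The log2 fold changes were 0.079 (SE 0.055, edgeR adjusted p = 0.514) and 0.084 (SE 0.055, edgeR adjusted p = 0.489). Without wild type replicate A they were 0.049 and 0.042, and without wild type replicate C that of *Col4a1* was 0.12.

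*Col4a3* and *Col4a4* encode chains of a second type IV network, known from the kidney glomerulus and the seminiferous tubule. *Col4a3* was at 164, 149.6, 222 and 200.3 CPM in wild type replicates A to D and 210.0, 201, 216 and 210.5 CPM in *Tra2b-cPEko* replicates A to D. *Col4a4* was at 352, 328, 449 and 411 CPM in wild type replicates A to D and 393, 417, 425 and 418 CPM in *Tra2b-cPEko* replicates A to D. Again wild type replicates A and B were the 2 lowest mice in each gene, and replicate C was the highest of all 8. The log2 fold changes were 0.19 (SE 0.11, edgeR adjusted p = 0.467) and 0.10 (SE 0.086, edgeR adjusted p = 0.605). Without wild type replicate B they were 0.10 and 0.034, without wild type replicate C 0.29 and 0.18, and without wild type replicate A that of *Col4a4* was 0.06. The X-linked *Col4a5* and *Col4a6* were at 94.5 ± 11.4 against 109.7 ± 11.2 CPM and 27.2 ± 2.19 against 30.7 ± 3.56 CPM (wild type against *Tra2b-cPEko*, mean ± SD, n = 4), with adjusted p of 0.314 and 0.348 from edgeR. *Tra2b-cPEko* replicate C was the highest mouse in both genes, and without it, in a comparison added after the values were seen, the log2 fold changes went from 0.21 to 0.14 and from 0.17 to 0.09.

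As a class, type IV transcripts took 0.175, 0.173, 0.209 and 0.196% of the counts on genes in wild type replicates A to D and 0.192, 0.205, 0.206 and 0.205% in *Tra2b-cPEko* replicates A to D. The *Tra2b-cPEko* mice lay between 0.192 and 0.206%, inside the wild type range of 0.173 to 0.209%. For the median type IV gene, the coefficient of variation between mice was 10.1% in wild type and 3.65% in *Tra2b-cPEko* mice. Over all 19104 genes tested, the medians were 8.77% and 7.01%. The coefficient was larger in wild type for 5 of the 6 type IV genes and for 62.1% of all genes tested, and the difference in spread was not tested.

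Type VI collagen forms beaded microfilaments around cells from the chains of *Col6a1*, *Col6a2* and a further chain from *Col6a3* or from the variant genes *Col6a4*, *Col6a5* and *Col6a6*. *Col6a1* was at 514, 526, 606 and 487 CPM in wild type replicates A to D and 556, 565, 557 and 526 CPM in *Tra2b-cPEko* replicates A to D. *Col6a2* was at 403, 400.0, 465 and 364 CPM in wild type replicates A to D and 419, 448, 446 and 431 CPM in *Tra2b-cPEko* replicates A to D. *Col6a3* was at 195, 178, 269.7 and 176 CPM in wild type replicates A to D and 208, 258, 259 and 216 CPM in *Tra2b-cPEko* replicates A to D. Wild type replicate C was the highest of the 8 mice in these 3 genes, and the other 3 wild type mice were below all or nearly all *Tra2b-cPEko* mice. The log2 fold changes were 0.047, 0.096 and 0.20, with adjusted p of 0.751, 0.5 and 0.573 from edgeR. Without wild type replicate C, they were 0.11, 0.16 and 0.36, that of *Col6a3* with an adjusted p of 0.0706 from edgeR. Without wild type replicate D, they were 0.0025, 0.041 and 0.13, and without wild type replicate A that of *Col6a1* was 0.029.

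Among the variant chains, *Col6a4* was at 58.1, 56.5, 69.5 and 59.7 CPM in wild type replicates A to D and 57.9, 71.7, 56.4 and 62.8 CPM in *Tra2b-cPEko* replicates A to D. The groups overlapped, and the log2 fold change of 0.028 (edgeR adjusted p = 0.907) turned negative without replicate B of wild type (-0.0057) and without replicate B of *Tra2b-cPEko* (-0.048). *Col6a5*, named here as the highest fold change of all 43, was at 20, 23.0, 23.7 and 13.1 CPM in wild type replicates A to D and 23.6, 32.8, 42.1 and 27.6 CPM in *Tra2b-cPEko* replicates A to D. *Tra2b-cPEko* replicate C was the highest and wild type replicate D the lowest, and *Tra2b-cPEko* replicate A lay within the wild type range. This gave a log2 fold change of 0.66 (SE 0.24, edgeR adjusted p = 0.274), with a spread between mice of 25.3% of the mean in *Tra2b-cPEko* and 24.3% in wild type. Without *Tra2b-cPEko* replicate C, the log2 fold change was 0.49, and without wild type replicate D 0.50. *Col6a6* was at 13.3 ± 2.07 CPM in wild type and 16.7 ± 3.52 CPM in *Tra2b-cPEko* (mean ± SD, n = 4), with a log2 fold change of 0.33 (SE 0.16, edgeR adjusted p = 0.357).

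*Col15a1* and *Col18a1* encode multiplexins, collagens of the basement membrane zone, and differed in opposite directions without passing the test. *Col15a1* was at 146, 159, 147 and 132 CPM in wild type replicates A to D and 154, 187, 177 and 160.3 CPM in *Tra2b-cPEko* replicates A to D. The groups overlapped only through wild type replicate B and *Tra2b-cPEko* replicate A. *Col18a1*, whose C-terminal fragment is endostatin, was at 607, 749, 722 and 731 CPM in wild type replicates A to D and 658, 632, 636 and 580.1 CPM in *Tra2b-cPEko* replicates A to D. Wild type replicate A was low, and the other 3 wild type mice were above all *Tra2b-cPEko* mice. The log2 fold change of 0.22 (SE 0.068, edgeR adjusted p = 0.184) of *Col15a1* compares with a log2 fold change of -0.16 (SE 0.065, edgeR adjusted p = 0.264) of *Col18a1*. Unadjusted p values were 0.00792 and 0.0254 from edgeR. Without wild type replicate A, DESeq2 called *Col18a1* lower (adjusted p = 0.00497). As replicate A was the lowest wild type mouse in *Col18a1*, leaving it out raises the wild type mean, and the call follows in part from that choice. The gene overlaps *Slc19a1* on the other strand.

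*Col7a1* encodes the anchoring fibrils that fasten epithelial basement membranes to the stroma below and is best known from skin. It was at 16.9, 19.2, 19.9 and 17.7 CPM in wild type replicates A to D and 22.7, 22.3, 26.8 and 23.3 CPM in *Tra2b-cPEko* replicates A to D. Each *Tra2b-cPEko* mouse was above each wild type mouse, and replicate C, the library with epididymal transcripts, was the highest. The means were 18.4 ± 1.40 CPM in wild type and 23.8 ± 2.06 CPM in *Tra2b-cPEko* (mean ± SD, n = 4), with a log2 fold change of 0.37 (SE 0.076, edgeR adjusted p = 0.0805), and DESeq2 gave an adjusted p of 0.00276. Without *Tra2b-cPEko* replicate C, the log2 fold change was 0.30, with adjusted p of 0.222 from edgeR and 0.0433 from DESeq2. DESeq2 called it in 8 of 8 fits that left out 1 mouse, with log2 fold changes between 0.30 and 0.41. The gene lies at chr9:108782647-108813943 (GRCm39), where it overlaps *Mir711* on its own strand and *Gm69443* on the other.

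FACIT collagens sit on the surface of fibrils, and 8 of their 9 genes had a log2 fold change above 0. *Col16a1* was at 98.6, 105, 106 and 84.9 CPM in wild type replicates A to D and 108, 115, 115 and 120.1 CPM in *Tra2b-cPEko* replicates A to D. *Col20a1* was at 13.8, 15.4, 11.0 and 12.0 CPM in wild type replicates A to D and 16.0, 16.3, 15.6 and 16.9 CPM in *Tra2b-cPEko* replicates A to D. In both genes all *Tra2b-cPEko* mice were above all wild type mice. The log2 fold changes were 0.22 (SE 0.066, edgeR adjusted p = 0.171) and 0.31 (SE 0.095, edgeR adjusted p = 0.169), and DESeq2 gave adjusted p of 0.0856 and 0.0733. *Col14a1*, which binds the decorin-coated surface of fibrils, was at 53.6, 47.4, 67.8 and 46.7 CPM in wild type replicates A to D and 53.5, 66.8, 75.7 and 64.8 CPM in *Tra2b-cPEko* replicates A to D. Its groups overlapped through wild type replicate C and *Tra2b-cPEko* replicate A, with a log2 fold change of 0.27 (SE 0.14, edgeR adjusted p = 0.407), or 0.19 without *Tra2b-cPEko* replicate C.

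The remaining 16 other collagens tested had means between 0.283 and 39.0 CPM, log2 fold changes between -0.21 (*Col9a1*) and 0.66 (*Col6a5*), and adjusted p of 0.271 or more from edgeR. They are the FACIT genes *Col9a1*, *Col9a2*, *Col9a3*, *Col12a1*, *Col19a1* and *Col22a1*, the short chain network genes *Col8a1* and *Col8a2*, the membrane collagens *Col13a1*, *Col17a1*, *Col23a1* and *Col25a1*, the variant type VI chains *Col6a5* and *Col6a6*, and *Col26a1* and *Col28a1*. Of these, 14 were above 0 and 2, *Col9a1* and *Col23a1*, below. *Col26a1*, a collagen first described in testis and ovary, was at 14.4 ± 1.46 CPM in wild type and 16.5 ± 0.662 CPM in *Tra2b-cPEko* (mean ± SD, n = 4), with an unadjusted p of 0.0284 and an adjusted p of 0.271 from edgeR.

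Compared per kilobase of the canonical transcript, which allows levels of different genes to be set side by side, *Col1a2* was highest at 351 CPM per kb (mean of 8 mice), before *Col3a1* at 324 and *Col1a1* at 225. The ranges of *Col1a2* and *Col3a1* over the 8 mice overlapped, while *Col1a1* lay below both. *Col6a1* (132), *Col18a1* (119) and *Col4a1* (108 CPM per kb) followed, with overlapping ranges between neighbours. Then came *Col4a2* (76.6) and *Col6a2* (70.7), whose ranges overlapped, and *Col4a4* (38.6 CPM per kb), which lay below both. From *Col4a4* down to *Col6a4* at rank 19 (8.34 CPM per kb), each gene overlapped the next. *Col7a1* and *Col24a1* were at ranks 34 and 38, with 2.28 and 1.08 CPM per kb. At the low end, *Col9a1* (0.268) and *Col19a1* (0.0257 CPM per kb) were each separated from the gene above.

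**Figure D3:**
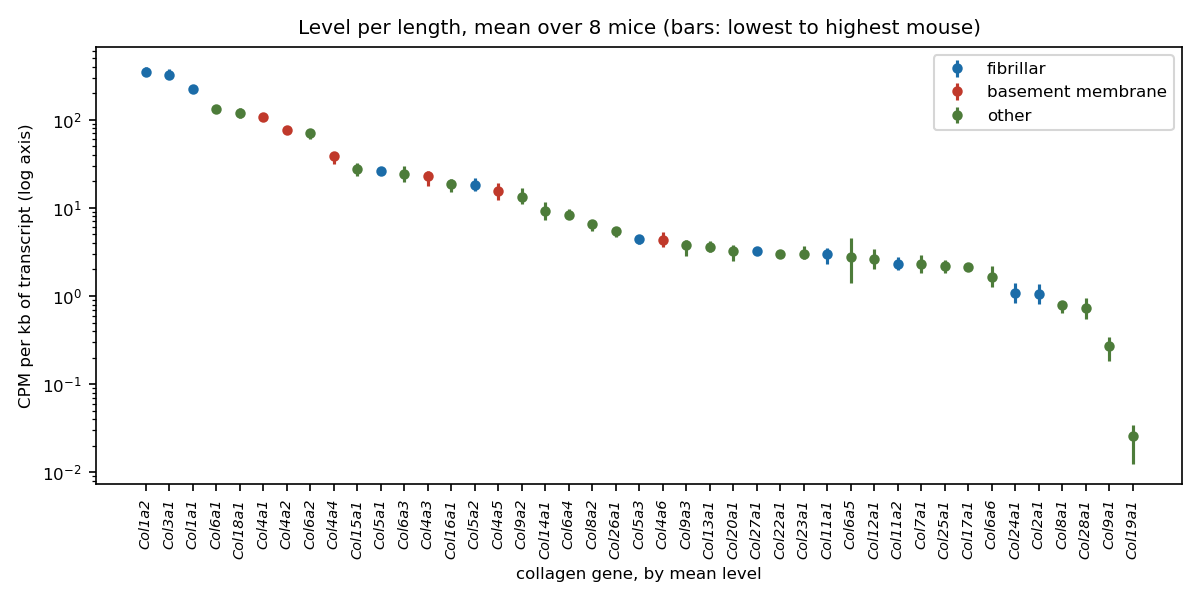
Level of 43 collagen genes in CPM per kb of transcript (y axis, log scale; points: mean of 8 mice, bars: lowest to highest mouse), ordered by level and coloured by class. The genes span from 351 for *Col1a2* to 0.0257 for *Col19a1*, and fibrillar genes stand both at the top and near the bottom; *Col10a1* is left out because 6 of the 8 libraries were at 0.

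The ratio between 2 chains within a mouse does not depend on how libraries are scaled. *Col1a1* to *Col1a2* per length was 0.652 ± 0.0503 in wild type and 0.633 ± 0.0282 in *Tra2b-cPEko* mice, and *Col3a1* to *Col1a1* was 1.38 ± 0.123 in wild type and 1.51 ± 0.184 in *Tra2b-cPEko* mice (mean ± SD, n = 4). The second ratio was lowest in wild type replicate B at 1.22 and *Tra2b-cPEko* replicate A at 1.23, whereas the other 3 *Tra2b-cPEko* mice, between 1.58 and 1.62, were above all wild type mice. *Col5a1* to *Col5a2* was 1.46 ± 0.173 in wild type and 1.48 ± 0.108 in *Tra2b-cPEko* mice. In none of these pairs were the genotypes apart.

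Among chains whose genes lie next to each other, ratios varied between mice of a genotype by 1.20 to 5.41% of the mean, and in the 3 ratios above by 4.45 to 12.2%. *Col4a1* to *Col4a2* was 1.41 ± 0.0317 in wild type and 1.40 ± 0.0169 in *Tra2b-cPEko* mice, with a spread of 2.25% and 1.20% of the mean, although the level of *Col4a1* itself varied by 7.29% and 3.93%. *Col6a1* to *Col6a2* was 1.91 ± 0.0375 in wild type and 1.84 ± 0.0657 in *Tra2b-cPEko* mice. The pairs *Col4a4* to *Col4a3* and *Col4a5* to *Col4a6*, added after the values were seen, gave 1.74 ± 0.0648 in wild type and 1.63 ± 0.0709 in *Tra2b-cPEko* mice and 3.51 ± 0.190 in wild type and 3.62 ± 0.0463 in *Tra2b-cPEko* mice. The ranges of the genotypes overlapped in all 7 ratios, and their mean log2 ratios differed by between -0.091 and 0.13.

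**Figure D4:**
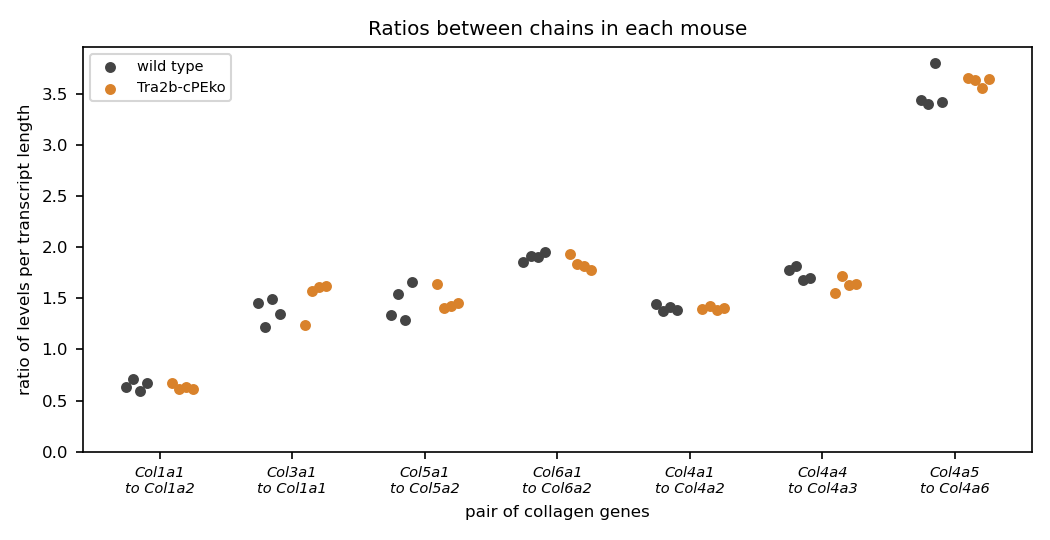
Ratio of 7 pairs of collagen genes per transcript length (y axis, from 0) in each mouse, wild type in grey and *Tra2b-cPEko* in orange, with replicates A to D from left to right. Points of *Col4a1* to *Col4a2* lie on 1 level, between 1.38 and 1.45, and the genotypes overlap in every pair.

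Neighbouring positions were held by 15 of the 44 genes, which formed 8 pairs of neighbours less than 200 kb apart (GRCm39, GENCODE). In the 3 type IV pairs the starts of both genes lay head to head. They were 355 bases apart for *Col4a1* and *Col4a2* and 158 bases for *Col4a4* and *Col4a3*, and the genes of these pairs overlapped there. For *Col4a6* and *Col4a5*, which did not overlap, the starts were 1282 bases apart. The windows above use RefSeq starts, which lie closer together for *Col4a1* and *Col4a2*. The log2 fold changes in the 3 pairs were 0.079 and 0.084, 0.10 and 0.19, and 0.17 and 0.21. *Col6a4*, *Col6a5* and *Col6a6* lie in a row on 1 strand of chromosome 9, with log2 fold changes of 0.028, 0.66 and 0.33. *Col3a1* and *Col5a2* are tail to tail on chromosome 1, with 0.096 and 0.072. In GENCODE an overlapping gene is annotated on the other strand for 34 of the 44 genes and on the same strand for 16. The paper took its annotation from NCBI, and whether it holds these partners was not examined. Reads of partners on the other strand may be mixed where the counting ignored strand, and reads of partners on the same strand under either setting.

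Much of the variation of the collagen genes was between mice of 1 genotype. Within wild type, replicate C held the highest value in 32 of the 43 genes tested, replicate A in 0. Within *Tra2b-cPEko*, replicate A held the lowest value in 20. The same counts over all genes tested are not given here. Whether these mice stood out in collagen genes more than in other genes is thus not shown. Relative to each gene's mean over all 8 mice, the median collagen gene was at -0.12, -0.12, 0.079 and -0.042 on the log2 scale in wild type replicates A to D and at -0.016, 0.092, 0.087 and 0.067 in *Tra2b-cPEko* replicates A to D. By this measure wild type replicate C lay among *Tra2b-cPEko* replicates B, C and D, and *Tra2b-cPEko* replicate A lay between them and the other wild type mice. Without wild type replicate C, DESeq2 called 10 collagen genes, against 6.18% of all genes it tested, and edgeR called 1, *Col7a1*, against 0.435%. The 10 were *Col2a1*, which was lower, and *Col4a3*, *Col4a5*, *Col6a2*, *Col6a3*, *Col6a6*, *Col7a1*, *Col14a1*, *Col16a1* and *Col24a1*, which were higher in *Tra2b-cPEko* mice. Leaving out the wild type mouse that was highest in 32 of the 43 genes lowers the wild type mean of those genes. The count of 10 thus follows in part from the choice of mouse and is no separate support for a difference.

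**Figure D5:**
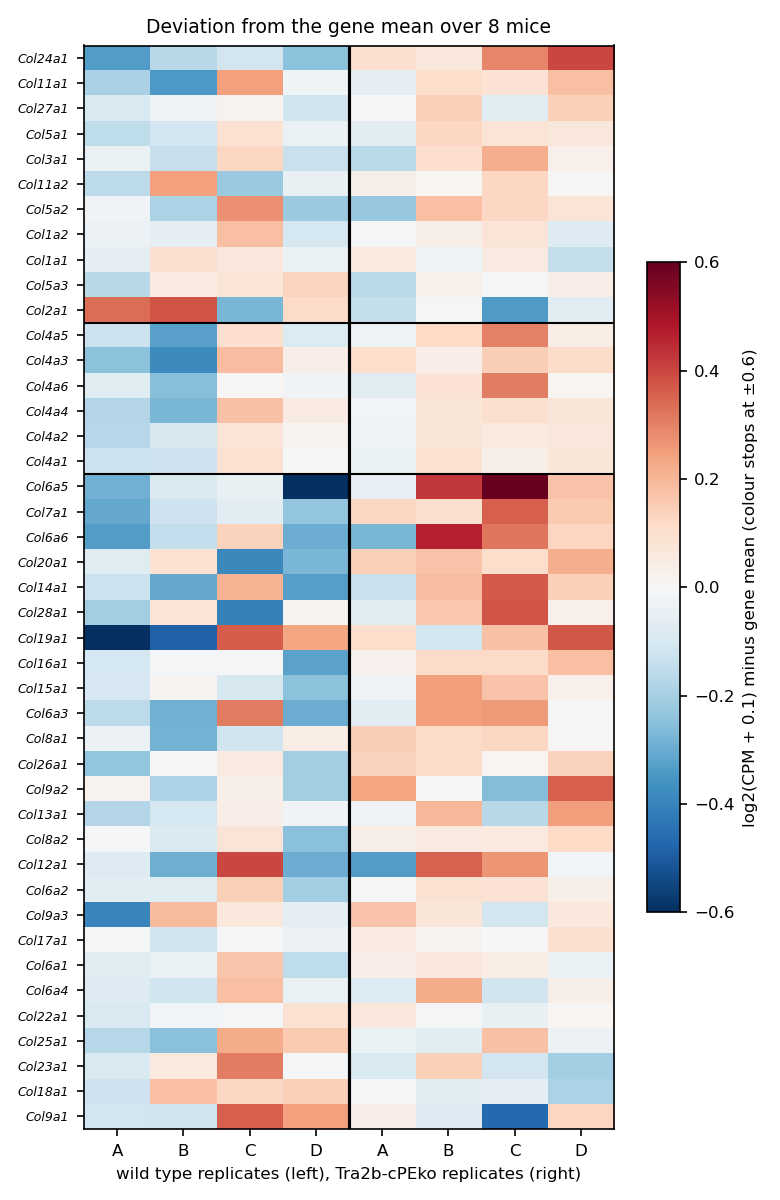
Deviation of each of the 43 collagen genes tested from its mean over the 8 mice, as log2(CPM + 0.1) (colour, red above and blue below the mean, saturated at ±0.6), in wild type (left) and *Tra2b-cPEko* mice (right), with lines between the fibrillar, type IV and other genes. Wild type replicate C is mostly red, above its gene mean in 31 of 43 genes, against 2, 10 and 12 genes in wild type replicates A, B and D.

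Markers of the collagen-producing and other cell types were read beside these values. Summed CPM of 8 peritubular myoid markers were 1031, 1048, 1117 and 973 in wild type replicates A to D and 1089, 1158, 1244 and 1014 in *Tra2b-cPEko* replicates A to D. Wild type replicate C was the highest and replicate D the lowest wild type mouse, and 6 of the 8 markers had a log2 fold change above 0. The 8 interstitial stromal markers gave 846 to 993 CPM in wild type and 857 to 990.0 CPM in *Tra2b-cPEko* mice, again with wild type replicate C highest of the 8 mice and with 4 of 8 markers above 0. The 8 markers of leptotene and zygotene spermatocytes summed to 903 to 1239.8 CPM in wild type and 955 to 994 CPM in *Tra2b-cPEko* mice, and wild type replicate C, with the most collagen, was the lowest and replicate A the highest. Among *Tra2b-cPEko* mice, replicate C, with the highest collagen share (1.06%), had the highest sum of these markers at 994 CPM. Replicate B, with the next highest share (1.03%), had the lowest sum at 955 CPM. Of the 8 spermatocyte markers, 2 had a log2 fold change above 0. The part of these cell types in the collagen values was not tested.

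Sums of Sertoli markers (1408 to 1527 CPM against 1283 to 1495 CPM), Leydig markers (358 to 438 CPM against 392.5 to 626 CPM) and endothelial markers (169.8 to 199.5 CPM against 175 to 199 CPM) overlapped between wild type and *Tra2b-cPEko* mice, as did those of adipocytes (15.5 to 18.7 CPM against 14.9 to 19.9 CPM) and skeletal muscle (7.24 to 7.78 CPM against 6.92 to 7.82 CPM). Sums of 7 macrophage markers did not (104 to 124 CPM against 125 to 153 CPM), nor did those of 6 markers of the tunica mesothelium, the covering of the testis (6.08 to 7.13 CPM against 8.44 to 47.1 CPM). The gap between the macrophage sums was narrow, from 124.4 CPM in wild type replicate C to 125.4 CPM in *Tra2b-cPEko* replicate D. Taken singly, each macrophage marker overlapped between the genotypes. Of the markers tested, 2 of 8 in Sertoli, 5 of 6 in Leydig and 8 of 8 in endothelial cells, 1 of 3 in adipocytes, 3 of 5 in skeletal muscle and 4 of 5 in cartilage were above 0, as were all 7 macrophage markers and all 6 mesothelial markers. Over all these lists edgeR called 1 marker, *Lrrn4* of the mesothelium, against 0.157% of all genes tested. DESeq2 called 4, against 2.68% of the genes it tested, or 1.6% when only genes higher in *Tra2b-cPEko* mice are counted. The 4 were *Lrrn4* and *Upk3b* among 6 mesothelial markers, *Csf1r* among 7 macrophage markers and *Lhcgr* among 6 Leydig markers, all higher in *Tra2b-cPEko* mice. Of the 8 epididymal markers, 3 were tested. Calls of markers without *Tra2b-cPEko* replicate C are not given here. None of the markers in these 12 lists was at 0 in all libraries. *Tra2b-cPEko* replicate C, highest in *Col7a1* and *Col6a5* and the library with epididymal transcripts, was highest in the macrophage and mesothelial sums. *Tra2b-cPEko* replicates A, B and D gave mesothelial sums between 8.44 and 17.4 CPM. *Krt8*, *Krt18* and *Krt19* of the mesothelial list were at 14.9, 9.75 and 8.59 CPM in *Tra2b-cPEko* replicate C. In *Tra2b-cPEko* replicates A, B and D they were at 0.518 to 1.44 CPM. The part of macrophages and mesothelium in the collagen values was not tested.

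The genes that make, assemble, bind and degrade collagen were taken in 6 lists of 82 genes, of which 78 were tested and edgeR called 0 (against 0.157% of all genes tested). At an unadjusted p under 0.05 there were 17 (against 15.3%), 14 higher (against 8.22%) and 3 lower in *Tra2b-cPEko* mice (against 7.07%). DESeq2 called 3 of the 78, *Fmod*, *Thbs1* and *Timp2*, all higher, against 2.68% of the genes it tested, or 1.6% in that direction. In the list of chain modification and folding, 6 of 18 genes were above 0, with a median log2 fold change of -0.016. *P4hb*, the subunit shared by prolyl 4-hydroxylases and the most abundant gene of the list, was at 530.3 ± 21.5 CPM in wild type and 524 ± 16.5 CPM in *Tra2b-cPEko* (mean ± SD, n = 4). *P4ha1*, a catalytic subunit of the same enzyme, had the smallest p of the list and was at 100.2, 99.4, 99.0 and 86.3 CPM in wild type replicates A to D and 115, 101, 116 and 109.9 CPM in *Tra2b-cPEko* replicates A to D, with no overlap and a log2 fold change of 0.20 (SE 0.059, edgeR adjusted p = 0.154).

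In the list of propeptide cleavage and crosslinking, 9 of 13 genes were above 0 (median 0.056). *Adamts2*, which removes the N-terminal propeptide of fibrillar collagens, was the most abundant at 132 ± 15.02 CPM in wild type and 144 ± 8.75 CPM in *Tra2b-cPEko* (mean ± SD, n = 4), with a log2 fold change of 0.12 (SE 0.075, edgeR adjusted p = 0.482). *Loxl1*, a crosslinking enzyme of the lysyl oxidase family, was at 67.6, 68.2, 74.8 and 74.0 CPM in wild type replicates A to D and 80.5, 79.5, 76.6 and 89.9 CPM in *Tra2b-cPEko* replicates A to D. Its groups did not overlap, with a log2 fold change of 0.20 (SE 0.057, edgeR adjusted p = 0.154). Of 9 collagen receptor genes tested, 8 were above 0 (median 0.067), among them the common integrin subunit *Itgb1*, at 404 ± 34.8 CPM in wild type and 423 ± 19.8 CPM in *Tra2b-cPEko* (mean ± SD, n = 4), with a log2 fold change of 0.067 (SE 0.06, edgeR adjusted p = 0.622). *Itga2*, an integrin subunit that binds collagen, was at 1.19 ± 0.301 CPM in wild type and 1.85 ± 0.360 CPM in *Tra2b-cPEko* (mean ± SD, n = 4), with a log2 fold change of 0.62 (SE 0.21, edgeR adjusted p = 0.198). *Gp6*, the platelet collagen receptor, did not pass the filter.

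Among 12 proteoglycans and glycoproteins of fibrils, 9 were above 0 (median 0.073), and *Dcn*, decorin, stands both here and among the stromal markers. *Fmod*, fibromodulin, which binds type I fibrils and guides their assembly, was at 60.1, 49.8, 57.5 and 47.4 CPM in wild type replicates A to D and 70.1, 64.0, 69.3 and 67.9 CPM in *Tra2b-cPEko* replicates A to D. *Thbs1*, thrombospondin 1, was at 36.7, 31.8, 39.2 and 33.3 CPM in wild type replicates A to D and 43.7, 41.1, 46.9 and 43.8 CPM in *Tra2b-cPEko* replicates A to D. In both genes each *Tra2b-cPEko* mouse was above each wild type mouse. *Fmod* had a log2 fold change of 0.34 (SE 0.072, edgeR adjusted p = 0.0844) and a DESeq2 adjusted p of 0.00391, and *Thbs1* a log2 fold change of 0.32 (SE 0.069, edgeR adjusted p = 0.0892) and a DESeq2 adjusted p of 0.00585. *Sparc*, a collagen-binding glycoprotein and the most abundant of the list, was at 2409 ± 99.5 CPM in wild type and 2532 ± 116 CPM in *Tra2b-cPEko* (mean ± SD, n = 4), with a log2 fold change of 0.072 (SE 0.049, edgeR adjusted p = 0.506).

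Of the 16 other basement membrane genes, laminins, nidogens and the proteoglycans perlecan and agrin among them, 15 were above 0, with a median log2 fold change of 0.094. *Hspg2*, perlecan, was at 497 ± 69.0 CPM in wild type and 537 ± 53.2 CPM in *Tra2b-cPEko* (mean ± SD, n = 4) and *Lamb2*, a laminin beta chain, at 366 ± 25.1 CPM in wild type and 411 ± 23.7 CPM in *Tra2b-cPEko* (mean ± SD, n = 4), with log2 fold changes of 0.11 and 0.17 and edgeR adjusted p of 0.643 and 0.215. In the list of collagen degradation, 7 of the 10 genes tested were above 0 (median 0.052). *Timp2*, an inhibitor of the matrix metalloproteinases that cut collagen, was at 298, 292, 328 and 339 CPM in wild type replicates A to D and 398, 345, 428 and 369 CPM in *Tra2b-cPEko* replicates A to D. The groups did not overlap, with a log2 fold change of 0.29 (SE 0.069, edgeR adjusted p = 0.105) and a DESeq2 adjusted p of 0.0101. The collagenase genes *Mmp8* and *Mmp13* and the inhibitor *Timp4* did not pass the filter. Without *Tra2b-cPEko* replicate C, DESeq2 called 1 of the 3 genes, *Fmod*, against 0.714% of all genes it tested.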

How the data were processed

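RNAseq libraries of 8 mice were made with a stranded mRNA kit. The authors deposited 1 table of raw counts per mouse, listing 40840 gene symbols and 5 closing lines of reads not assigned to genes, which were left out here and hold between 31.0% and 33.6% of the reads. The submitters' processing notes list HISAT2 2.2.1, SAMtools 1.7.1, HTSeq 2.0.2 and deepTools 3.5.1 on GRCm39 (mm39), whereas the paper's methods name Salmon. Whether counting used strand is not given in the sources used here. Counts were tested with edgeR 4.0.16 (R 4.3.3, filterByExpr with a least count of 10 and a least total of 15, TMM, robust quasi-likelihood test, Benjamini-Hochberg adjustment over 19104 genes). DESeq2 1.42.0 and limma-voom (limma 3.58.1) were alternatives, beside other scalings, filters, a replicate block, a threshold of 0.1 and fits without each mouse. The biological coefficient of variation was 9.56%. The SE given with a log2 fold change is its absolute value divided by the square root of the test's F statistic. Scripts were tested on simulated data. The mice were independent, and no batch is given. The members and lists were chosen with earlier results of these data known. Collagen genes named with every mouse's value are the 5 fibrillar, 4 type IV and 8 other genes with the highest mean CPM, the 6 with the smallest unadjusted p and those called by edgeR or DESeq2. In each pathway list, the genes called by edgeR or DESeq2, otherwise the one with the smallest p, and the gene with the highest mean CPM are named. Lengths and positions come from GENCODE vM39 (GRCm39), which holds all 44 genes, and promoters from RefSeq (GRCm38.p6).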

Additional observations from a re-analysis of the deposited data

Results flagged for a closer look

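Dixon's test at the 95% level on groups of 4 mice was applied to 132 sets of values, and 7 had a mouse apart from the other 3. Chance flags about 1 in 20 sets, or 6.6 of 132. In wild type replicate C, the share of all collagen genes was 1.08% against 0.939 to 0.955% in the other 3 wild type mice, and the ratio of *Col4a5* to *Col4a6* was 3.80 against 3.40 to 3.44. In *Tra2b-cPEko* replicate A, *Col4a2* was at 507 CPM against 537 to 543 CPM in the other 3 *Tra2b-cPEko* mice, the share of type IV genes was 0.192% against 0.205 to 0.206%, and the ratio of *Col3a1* to *Col1a1* was 1.23 against 1.58 to 1.62. In *Tra2b-cPEko* replicate C, *Col25a1*, a membrane collagen of neurons, was at 6.41 CPM against 5.42 to 5.53 CPM, and the epididymal markers summed to 294 CPM against 5.23 to 7.72 CPM.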

How the results depend on the processing

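With edgeR's 30 calls over all genes as the reference, the count was 123 when genes of low count were kept, 58 when scaled by upper quartiles, 14 at a mean count of at least 50, 11 with limma-voom, 12 without robust estimation, 156 at an adjusted p under 0.1 and 502 with DESeq2. Fits without 1 mouse gave between 3 and 84 genes with edgeR (9, 9, 84 and 22 without wild type replicates A to D, 10, 76, 9 and 3 without *Tra2b-cPEko* replicates A to D) and between 137 and 1041 with DESeq2 (224, 217, 1041 and 435 without wild type replicates A to D, 235, 540, 137 and 242 without *Tra2b-cPEko* replicates A to D), the latter added after the data were seen. Of the collagen genes, edgeR called 1 without the filter, with the block and without wild type replicate C (*Col7a1* each time) and 2 at an adjusted p under 0.1, and DESeq2 2, or between 1 and 10 without 1 mouse (10 without wild type replicate C, 4 without wild type replicate B, 3 without *Tra2b-cPEko* replicate A, 1 without *Tra2b-cPEko* replicates C or D). Of the pathway genes, edgeR called 2 without the filter and with the block, and DESeq2 3, with between 0 and 11 over all fits without 1 mouse (11 with DESeq2 without wild type replicate C, 7 without *Tra2b-cPEko* replicate B). The replicate letters did not pair the mice: same-letter correlations of the deviations from the group means were 0.027, -0.14, -0.039 and 0.12 for A to D, and in the replicate block fit 67 genes were called, with a log2 fold change of 0.37 for *Col7a1*. No class median moved by more than the spread between mice under the alternatives run. This spread, a pooled SD of the median deviation of the class, was 0.068 for fibrillar, 0.12 for type IV and 0.082 for other collagens. It describes single mice and is not a standard error of a class median. It is close to the fibrillar and type IV medians themselves (0.081 and 0.14), so staying within it is a loose limit for these classes. Under the alternatives run, the median was between 0.042 and 0.14 for fibrillar and between 0.081 and 0.19 for type IV genes. For the other collagens it was between 0.13 and 0.18. Over 25 alternatives, between 33 and 38 of the 43 collagen genes were above 0. The log2 fold change of *Col1a2* was -0.0021 without the filter and between -0.030 and 0.069 without 1 mouse, by edgeR and by DESeq2, where it was -0.0089 and -0.013 without wild type replicates A and B, while for *Tra2b-cPEko* it was -0.0055 without replicate B and -0.021 without replicate C. That of *Col1a1* was between -0.058 and 0.0090 by edgeR and 0.0085 by DESeq2 without *Tra2b-cPEko* replicate D. That of *Col6a4* was between -0.048 and 0.095 by edgeR, and -0.0081 and -0.049 by DESeq2 without replicate B of wild type and of *Tra2b-cPEko*. The other 17 named collagen genes kept their direction under all alternatives run. The cause of these differences was not tested. At 4 mice per genotype, a change near 0.1 on the log2 scale is of the order of the standard errors of the collagen genes. These ranged from 0.055 to 0.34, the last in *Col19a1* at a mean of 0.283 CPM. Some changes exceeded their own standard error by more, among them *Col7a1* (0.37, SE 0.076) and *Col24a1* (0.44, SE 0.098).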
